A study of Mus musculus with 7 samples.

Results

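Cholesterol synthesis runs from acetyl-CoA through mevalonate and farnesyl diphosphate to squalene, then through lanosterol to cholesterol. Its genes are switched on by the transcription factors SREBP-1 and SREBP-2, which SCAP escorts out of the endoplasmic reticulum when membrane sterol is low and which INSIG proteins hold back when it is high. Granulosa cells, the somatic cells around the oocyte, need sterol for membranes as they divide and, after ovulation, as the substrate of progesterone. The 26 genes described here are enzymes of that route, its SREBP control genes and a few genes of sterol handling, found by gene symbol among the 55228 rows of the count table. All 26 were found and all 26 passed the filter on low counts, which left 15798 genes to be tested. They were 7 early enzymes (acetyl-CoA to farnesyl diphosphate), 3 squalene enzymes (farnesyl diphosphate to lanosterol), 8 late enzymes (lanosterol to cholesterol), 5 SREBP control genes and the 3 genes Ggps1, Stard4 and Mylip.

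The libraries were made from untreated primary granulosa cells of C57BL/6J mouse ovary. There were 3 libraries labelled Fhl2 KO (knockout) and 4 labelled WT (wild type). The labels give neither the animals' age nor the deleted part of Fhl2, and whether each library is a separate animal or culture is not stated. The p-values therefore set a difference between the genotypes only against the spread among these libraries, which may be technical. The series title names EGF receptor and YAP signalling in follicle growth as the study's subject.

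Library totals ran from 38855596 to 50514556 counts. Fhl2, a LIM-domain protein gene, stood at 47.9, 66.7 and 60.3 CPM in Fhl2 KO libraries 1 to 3, against 101, 114, 106 and 109.8 CPM in WT libraries 1 to 4, a log2 fold change of -0.88 (SE 0.107, edgeR adjusted p = 3.29e-05), so its transcript was reduced but still counted in the libraries labelled Fhl2 KO. Levels are CPM (counts scaled to library size, here after TMM normalization), fold changes are Fhl2 KO over WT from edgeR's quasi-likelihood test with Benjamini-Hochberg adjustment over all genes tested, and a gene was called at an adjusted p of at most 0.05. The granulosa markers were Fshr, Foxl2, Amh, Inha, Inhba, Cyp19a1 and Nr5a2. Their sum was 3605 to 4469.5 CPM in Fhl2 KO and 4082 to 4783 CPM in WT. Inha and Inhba made up most of it and moved in opposite directions. The mean of Inha was 1698 CPM in Fhl2 KO and 1042 CPM in WT, and that of Inhba 2026 and 3095 CPM. Cyp19a1, the aromatase gene, had 8, 17 and 6 counts in Fhl2 KO libraries 1 to 3 and 0 in the 4 WT libraries. Of the 6 markers tested 2 were called higher and 4 lower. Markers of other cells moved as well. The smooth muscle sum (3 of 3 markers lower) was 459 to 537 CPM in Fhl2 KO and 871 to 963 CPM in WT, the stroma sum (2 of 4 lower) 26.4 to 32.3 CPM in Fhl2 KO and 72.3 to 89.2 CPM in WT, the epithelium sum (3 of 4 higher) 11.1 to 19.9 CPM in Fhl2 KO and 2.86 to 4.96 CPM in WT and the lung sum (2 of 2 higher) 0.658 to 14.9 CPM in Fhl2 KO and 0.0214 to 0.155 CPM in WT. Of the endothelium and immune markers 2 of 3 each were tested and 0 called, and the theca and adipocyte markers were all too low to be tested. The sums of these 4 lists lay at or under 7.65 CPM in every library, and Adipoq and Cidec had 0 counts in all 7. In bulk samples, fewer cells of a type and less RNA per cell cannot be told apart, and the part of these cells in the results below was not tested. Long and short transcripts were not counted alike in the 7 libraries. The slope of log2 CPM, set against the 7-library mean, over the log2 of transcript length was -0.00333, -0.140 and -0.116 in Fhl2 KO libraries 1 to 3, against 0.0526 to 0.0750 in the WT libraries. Each result below is therefore given, where it matters, a second time with the length and GC trend of each library taken out, called the corrected value or the correction.

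Promoter sequence shows what the members' start sites have in common. RefSeq windows (build GRCm38.p6) of the 250 bases before a gene start were at hand for 22 of the 26 genes, in 30 windows since some genes have several starts; none was at hand for Fdps, Fdft1, Sqle and Stard4. CCAAT, the box bound by NF-Y, a known partner of SREBP, was found on either strand in 21 of the 30 windows (70.0%), and in 33.8% of all 32851 windows. A sterol regulatory element core, CACNCCAC on either strand, was found in 3 of the 30 (10%), those of Hmgcs1, Insig1 and Acat2, and in 5.29% of all windows. The longer form TCACNCCAC, which contains the core, was found in Hmgcs1 alone (3.33%, against 1.05% of all windows). The windows of Hmgcs1, Lss and Cyp51, whose transcripts were lower in Fhl2 KO, of Ebp, which was higher, and of Insig1, which holds a core match, are shown 5′ to 3′ on the gene's own strand, with matches to the box or the core, on either strand, in capitals.
Hmgcs1 (chr13:119690101-119690350, plus strand): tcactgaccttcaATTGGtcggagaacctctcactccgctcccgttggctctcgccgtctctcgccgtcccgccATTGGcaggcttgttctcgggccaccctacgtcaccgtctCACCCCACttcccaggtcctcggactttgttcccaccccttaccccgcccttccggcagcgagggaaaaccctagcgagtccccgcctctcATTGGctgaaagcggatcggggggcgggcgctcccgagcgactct
Lss (chr10:76531355-76531604, plus strand): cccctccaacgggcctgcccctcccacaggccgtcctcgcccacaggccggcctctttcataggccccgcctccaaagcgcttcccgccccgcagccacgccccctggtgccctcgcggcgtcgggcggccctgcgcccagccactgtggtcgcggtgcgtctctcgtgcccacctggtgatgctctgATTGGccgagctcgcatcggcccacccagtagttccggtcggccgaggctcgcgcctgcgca
Cyp51 (chr5:4104698-4104947, minus strand): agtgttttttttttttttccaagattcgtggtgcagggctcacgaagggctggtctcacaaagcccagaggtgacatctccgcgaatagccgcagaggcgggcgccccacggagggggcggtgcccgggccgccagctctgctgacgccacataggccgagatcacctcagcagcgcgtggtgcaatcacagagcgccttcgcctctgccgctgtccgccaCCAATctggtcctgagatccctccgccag
Ebp (chrX:8193513-8193762, minus strand): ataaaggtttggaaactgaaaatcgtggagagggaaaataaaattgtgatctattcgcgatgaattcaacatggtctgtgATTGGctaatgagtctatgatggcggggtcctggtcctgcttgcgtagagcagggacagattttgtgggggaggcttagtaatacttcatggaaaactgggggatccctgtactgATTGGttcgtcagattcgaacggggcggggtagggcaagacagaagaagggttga
Insig1 (chr5:28071162-28071411, plus strand): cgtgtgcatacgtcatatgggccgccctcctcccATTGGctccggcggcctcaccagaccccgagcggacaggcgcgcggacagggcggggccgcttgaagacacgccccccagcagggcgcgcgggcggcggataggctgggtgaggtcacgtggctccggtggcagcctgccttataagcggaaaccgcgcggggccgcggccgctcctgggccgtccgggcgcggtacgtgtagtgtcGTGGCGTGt
The Hmgcs1 window holds 3 CCAAT boxes, that of Ebp 2 and those of Lss, Cyp51 and Insig1 1 each. Lower and higher genes thus both carry the box, and a match describes letters only.

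In the Fhl2 KO libraries 7 of the 26 genes were lower and 1 was higher. The lower ones were the early enzymes Hmgcs1 and Idi1, the squalene enzymes Sqle and Lss, the first enzyme acting on lanosterol, Cyp51, the sterol carrier Stard4 and the ubiquitin ligase Mylip, and the higher one was the sterol isomerase Ebp. Their levels in Fhl2 KO were between 59.01% (Mylip) and 79.8% (Hmgcs1) of WT for the lower genes, and 121% for Ebp. Of all genes tested, 29.0% were called, 15.6% lower and 13.5% higher, so the 8 members called (30.8%) are close to the background share, while their split was 26.9% lower and 3.85% higher. The median log2 fold change was -0.13 over the 26 members (corrected -0.14) and -1.84e-04 over all genes tested. The libraries of the 2 genotypes did not overlap for 8 members, against 34.2% of all genes tested. The Fhl2 KO libraries were below the WT libraries in all 8 (17.7% of all genes tested) and above them in 0 (16.4%). Without Fhl2 KO library 1 there were 9 lower and 3 higher members, where 21.1% and 20.6% of all genes tested were called. Without library 2 there were 5 and 0 (10.6% and 8.94% of all genes), and without library 3 also 5 and 0 (6.14% and 4.09%), so the shares over all genes moved as well. For Fhl2 KO library 1 alone against WT the lower members were Acat2, Hmgcs1 and Sqle and there was no higher one (2.97% and 1.63% of all genes). After the correction 7 were lower and 1 was higher (11.2% and 10.5% of all genes): Stard4 and Ebp were no longer called, and Insig1 (lower) and Fdft1 (higher) were.

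**Figure D1:**
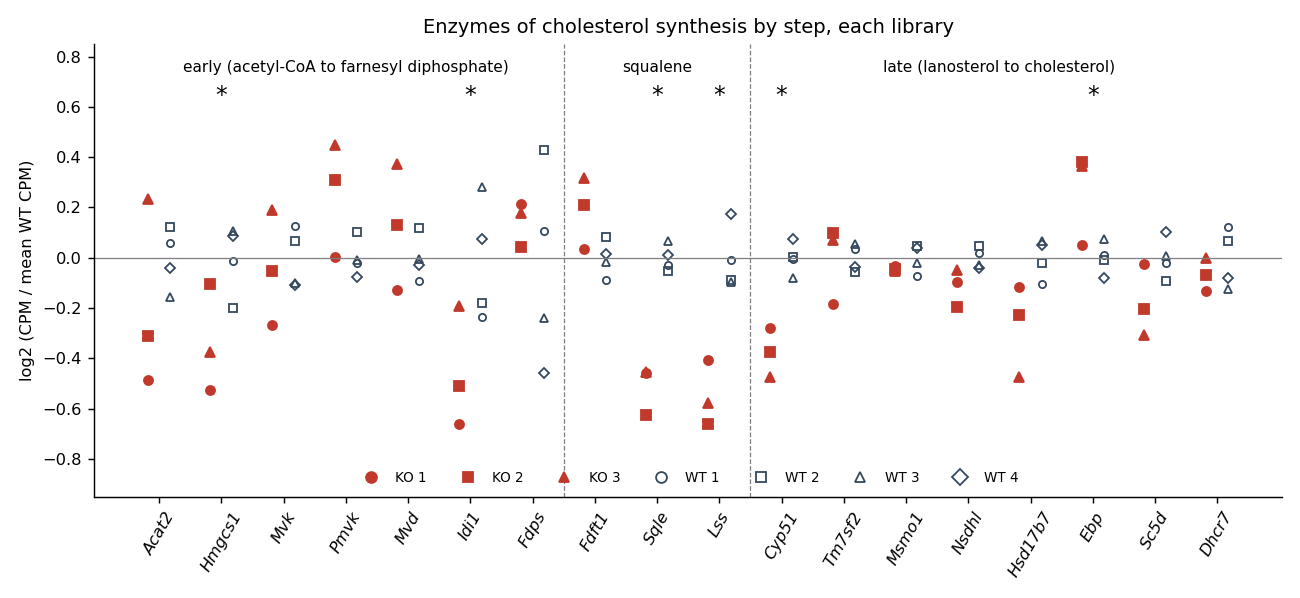
Level of each of the 18 enzymes in each library, as log2 of CPM over the mean WT CPM, in the order of the route; red filled points are Fhl2 KO libraries, dark open points WT libraries, and asterisks mark genes at an edgeR adjusted p of at most 0.05. The Fhl2 KO points of Sqle, Lss and Cyp51 lie below all WT points, as do, by little, those of Nsdhl and Hsd17b7. Those of the early enzymes spread widely, with library 1 the lowest of the 3 for Acat2, Hmgcs1, Mvk, Pmvk, Mvd and Idi1.

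Among the enzymes, 3 were lower in calls that no left-out library removed, and they catalyse consecutive steps from squalene through lanosterol. Sqle, the squalene epoxidase, a rate-limiting enzyme of the sterol branch, had 48.5, 43.2 and 48.6 CPM in Fhl2 KO libraries 1 to 3, against 65.3, 64.2, 69.7 and 67.2 CPM in WT libraries 1 to 4. All Fhl2 KO libraries were lower than any WT library, with no overlap. Sqle was lower, with a log2 fold change of -0.51 (SE 0.0893, edgeR adjusted p = 9.14e-04) and was called under all 20 alternative settings, with adjusted p of 1.88e-06 to 0.00997; a range given for a gene below is that of its adjusted p over its alternatives. The gene spans bases 59315077 to 59331192 of chromosome 15, plus strand (mm10). Lss, the lanosterol synthase that closes the ring system, had 23.98, 20.1 and 21.3 CPM in Fhl2 KO libraries 1 to 3, against 31.6, 29.9, 29.8 and 35.96 CPM in WT libraries 1 to 4. The groups again did not overlap, with WT library 4 the highest. Lss was lower, with a log2 fold change of -0.55 (SE 0.105, edgeR adjusted p = 0.00168), and the gene spans bases 76531588 to 76557138 of chromosome 10, plus strand. Its corrected value was -0.39 (edgeR adjusted p = 0.00398), and its call was lost when the longest transcript of any kind was used in that correction (-0.21, edgeR adjusted p = 0.0888), within a range of 1.80e-05 to 0.0888. Cyp51, the lanosterol demethylase and the first enzyme of the late stage, had 96.6, 90.3 and 84.3 CPM in Fhl2 KO libraries 1 to 3, against 117, 117, 111 and 124 CPM in WT libraries 1 to 4. The Fhl2 KO libraries lay below all WT libraries. Cyp51 was lower, with a log2 fold change of -0.37 (SE 0.0877, edgeR adjusted p = 0.00568), with a corrected value of -0.23 (edgeR adjusted p = 0.0184) and a range of 1.32e-04 to 0.0993. The gene spans bases 4081145 to 4104746 of chromosome 5, minus strand. For Fhl2 KO library 1 alone against WT, Lss (-0.41, edgeR adjusted p = 0.0689) and Cyp51 (-0.28, 0.0993) were not called and Sqle was (-0.46, 0.00997).

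Fdft1, the squalene synthase that commits farnesyl diphosphate to sterols, stands directly before Sqle and was not called. It had 98.7, 111 and 119.8 CPM in Fhl2 KO libraries 1 to 3, against 90.6, 102, 95.2 and 97.3 CPM in WT libraries 1 to 4. Fhl2 KO libraries 2 and 3 were above every WT library and library 1 was within the WT range. Its log2 fold change was 0.19 (SE 0.0909, edgeR adjusted p = 0.121); it was called higher without Fhl2 KO library 1 and after the correction (0.27, edgeR adjusted p = 0.0333; range 0.00586 to 0.894). Exons of Fdft1, on bases 63145150 to 63179578 of chromosome 14, minus strand, overlap exons of the cathepsin gene Ctsb on the other strand by 774 bases. Reads of this stretch may not be separated, since the strand setting of the counting is not given in the sources used here. Ctsb was higher in Fhl2 KO (log2 fold change 0.56, SE 0.0911, edgeR adjusted p = 5.16e-04); its part in the Fdft1 value was not tested. Within a library, where no scaling enters, the number of Sqle counts per Fdft1 count was 0.492, 0.388 and 0.406 in Fhl2 KO libraries 1 to 3, against 0.721, 0.630, 0.732 and 0.691 in WT libraries 1 to 4. The number of Lss counts per Fdft1 count was 0.243, 0.181 and 0.178 in Fhl2 KO libraries 1 to 3, against 0.349, 0.294, 0.313 and 0.370 in WT libraries 1 to 4. Both ratios were lower in each Fhl2 KO library than in any WT library; they were chosen after the values were seen and were not tested.

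The early enzymes, which make the isoprenoid units shared by sterols, ubiquinone and prenylated proteins, had 2 of 7 lower and none higher. The shares were 28.6% and 0%, against 15.6% and 13.5% of all genes tested. Hmgcs1, the HMG-CoA synthase, had 70.5, 94.4 and 78.2 CPM in Fhl2 KO libraries 1 to 3, against 101, 88.3, 109 and 108 CPM in WT libraries 1 to 4. Fhl2 KO library 2 lay within the WT range and libraries 1 and 3 below it. Hmgcs1 was lower, with a log2 fold change of -0.32 (SE 0.108, edgeR adjusted p = 0.0320), and that call was lost without Fhl2 KO library 1 or 3, without WT library 1, 3 or 4, and with library totals alone (range 0.00620 to 0.138). Idi1, the isomerase of isopentenyl diphosphate, had 6.55, 7.28 and 9.11 CPM in Fhl2 KO libraries 1 to 3, against 8.83, 9.18, 12.7 and 10.99 CPM in WT libraries 1 to 4. Fhl2 KO libraries 1 and 2 were below all WT libraries and library 3 was among them. Idi1 was lower, with a log2 fold change of -0.44 (SE 0.152, edgeR adjusted p = 0.0363), and its call was lost without Fhl2 KO library 1 or 2, without WT library 3 or 4, with voom, for Fhl2 KO library 1 alone (range 0.0122 to 0.133). Of its 31-base words, 32.0% occur in transcripts of other genes, among them the processed pseudogene Gm13502, itself lower (log2 fold change -0.73, SE 0.242, edgeR adjusted p = 0.0318).

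The 3 enzymes between Hmgcs1 and Idi1 in this list were not called. Mvk, the mevalonate kinase, stood at 9.03 ± 1.46 CPM in Fhl2 KO and 9.23 ± 0.773 CPM in WT (SD, n = 3 and 4), with a log2 fold change of -0.03 (SE 0.134, edgeR adjusted p = 0.896) and a corrected value of -0.27. Pmvk, the next kinase, had 17.05, 21.1 and 23.2 CPM in Fhl2 KO libraries 1 to 3, against 16.8, 18.3, 16.9 and 16.1 CPM in WT libraries 1 to 4, a log2 fold change of 0.27 (SE 0.113, edgeR adjusted p = 0.0849). Fhl2 KO libraries 2 and 3 were above the WT range and library 1 inside it, and the gene was called higher without library 1 and with library totals alone. Mvd, the decarboxylase that makes isopentenyl diphosphate, stood at 11.8 ± 2.07 CPM in Fhl2 KO and 10.7 ± 0.667 CPM in WT (SD, n = 3 and 4) (0.14, SE 0.128, edgeR adjusted p = 0.437). These transcripts are short (Pmvk 1194, Mvk 1660 and Mvd 1756 bases) and rich in GC (57.0%, 59.6% and 59.3%), and their corrected values were all below 0 (-0.03 for Pmvk, -0.27 for Mvk and -0.10 for Mvd), with none called. Acat2, the thiolase of the first step, had 15.1, 17.04 and 24.9 CPM in Fhl2 KO libraries 1 to 3, against 22.04, 23.1, 18.96 and 20.6 CPM in WT libraries 1 to 4. The Fhl2 KO libraries spread from below to above the whole WT range. The log2 fold change of Acat2 was -0.15 (SE 0.146, edgeR adjusted p = 0.464), and library 1 alone was lower than WT (-0.49, edgeR adjusted p = 0.0417). Of its 31-base words, 50.5% are shared with Acat3 and Tcp1, so its count is uncertain.

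Fdps, the farnesyl diphosphate synthase, had only 91, 96 and 103 counts in Fhl2 KO libraries 1 to 3, against 83, 136, 78 and 62 counts in WT libraries 1 to 4, the lowest mean level per kilobase of the 26 in WT. Of the 31-base words of its transcript, 89.7% also occur in transcripts of other genes, mainly the overlapping gene Gm43738 and processed pseudogenes. The row of the pseudogene Gm3571 held 128, 165 and 198 counts in Fhl2 KO, against 179, 183, 151 and 182 in WT, more than the row of Fdps itself in each library. The count of Fdps is therefore no measure of its transcript level here, and its log2 fold change of 0.15 (SE 0.235, edgeR adjusted p = 0.670) carries that uncertainty.

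The late enzymes, which reshape lanosterol into cholesterol, had 1 of 8 lower and 1 higher. These shares, 12.5% each, were near the 15.6% lower and 13.5% higher of all genes tested. Besides Cyp51, only Ebp, the isomerase that moves a ring double bond, was called. Ebp had 42.6, 53.5 and 52.9 CPM in Fhl2 KO libraries 1 to 3, against 41.4, 40.8, 43.3 and 38.9 CPM in WT libraries 1 to 4. Fhl2 KO libraries 2 and 3 were above all WT libraries and library 1 was within their range. Its log2 fold change was 0.27 (SE 0.0988, edgeR adjusted p = 0.0454), with a corrected value of 0.13 (edgeR adjusted p = 0.240), and its call was lost without Fhl2 KO library 2 or 3, without any 1 of the 4 WT libraries, with no low-count filter, and for library 1 alone (0.05; range 7.36e-04 to 0.866). Hsd17b7, the reductase that follows removal of a methyl group, had 39.7, 36.8 and 31.01 CPM in Fhl2 KO libraries 1 to 3, against 40.1, 42.5, 45.1 and 44.7 CPM in WT libraries 1 to 4. The groups did not overlap, but the closest libraries were near each other, and the log2 fold change was -0.27 (SE 0.101, edgeR adjusted p = 0.0570), corrected -0.07. Sc5d, the sterol desaturase, stood at 80.7 ± 8.12 CPM in Fhl2 KO and 91.00 ± 5.09 CPM in WT (SD, n = 3 and 4), with -0.17 (SE 0.0930, edgeR adjusted p = 0.173), corrected 0.03. Both were called lower without Fhl2 KO library 1.

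The other late enzymes lay close to their WT levels. Msmo1, which oxidises the methyl groups of lanosterol products, stood at 57.9 ± 0.342 CPM in Fhl2 KO and 59.7 ± 2.33 CPM in WT (SD, n = 3 and 4), a log2 fold change of -0.04 (SE 0.0851, edgeR adjusted p = 0.741). Nsdhl, the dehydrogenase that acts with Msmo1, stood at 23.8 ± 1.23 CPM in Fhl2 KO and 25.7 ± 0.702 CPM in WT (SD, n = 3 and 4) (-0.11, SE 0.0929, edgeR adjusted p = 0.383). The groups of Nsdhl did not overlap, by little, with 22.4 to 24.8 CPM in Fhl2 KO and 25.02 to 26.5 CPM in WT. Dhcr7, the reductase of the last step, stood at 42.5 ± 1.92 CPM in Fhl2 KO and 44.5 ± 3.67 CPM in WT (SD, n = 3 and 4) (-0.07, SE 0.0947, edgeR adjusted p = 0.642). Tm7sf2, a sterol reductase, stood at 2.82 ± 0.303 CPM in Fhl2 KO and 2.82 ± 0.108 CPM in WT (SD, n = 3 and 4) (0.00, SE 0.177, edgeR adjusted p = 0.991); its exons overlap Vps51 on the same strand by 532 bases. Within a library the number of Cyp51 counts per Msmo1 count was 1.66, 1.56 and 1.46 in Fhl2 KO libraries 1 to 3, against 2.06, 1.90, 1.88 and 2.01 in WT libraries 1 to 4. Each Fhl2 KO library was again below all WT libraries. This ratio too was chosen after the values were seen and was not tested. The transcripts differ in length (3931 bases for Cyp51 and 2044 for Msmo1), and the corrected log2 fold changes, -0.23 for Cyp51 and -0.11 for Msmo1, lay closer together than the uncorrected ones, -0.37 and -0.04.

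Set side by side, the stages differed in size and in spread. Over the 7 early enzymes the median of log2 CPM over the mean WT level was -0.27, -0.05 and 0.19 in Fhl2 KO libraries 1 to 3, against -0.04 to 0.10 in the WT libraries. The Fhl2 KO libraries thus lay on both sides of the WT libraries. Over the 3 squalene enzymes it was -0.41, -0.62 and -0.45 in Fhl2 KO libraries 1 to 3, against -0.05 to 0.02 in the WT libraries, and over the 8 late enzymes -0.11, -0.13 and -0.05 in Fhl2 KO libraries 1 to 3, against -0.01 to 0.00 in the WT libraries. In both of these the Fhl2 KO libraries lay below all WT libraries, by little in the late stage. A median over 3 genes is the value of 1 gene, and the squalene enzymes did not move together. Sqle and Lss were lower, while Fdft1 stood at 0.04, 0.21 and 0.32 in Fhl2 KO libraries 1 to 3. The median fitted log2 fold change was -0.03 for early, -0.51 for squalene and -0.09 for late enzymes, and after the correction -0.21, -0.39 and -0.11. Early enzymes therefore stood above late ones by median in the uncorrected fit and below them in the corrected one, and the difference between the stages was not tested. With the squalene enzymes counted as early the early median was -0.09, and with them counted as late the late median was -0.11. Acat2, Hmgcs1, Idi1 and Fdps share over 10% of their 31-base words with transcripts of other genes. Leaving them out put the uncorrected early median at 0.14, over the 3 enzymes Mvk, Pmvk and Mvd. The corrected values of these 3 were -0.27, -0.03 and -0.10, so the sign of that median depended on the correction. For Hmgcs1 the shared words are those of Gm48342, an antisense transcript that overlaps it by 557 bases, and not of a copy. Without Fhl2 KO library 1 the early median was 0.10, and without library 3 it was -0.16.

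**Figure D2:**
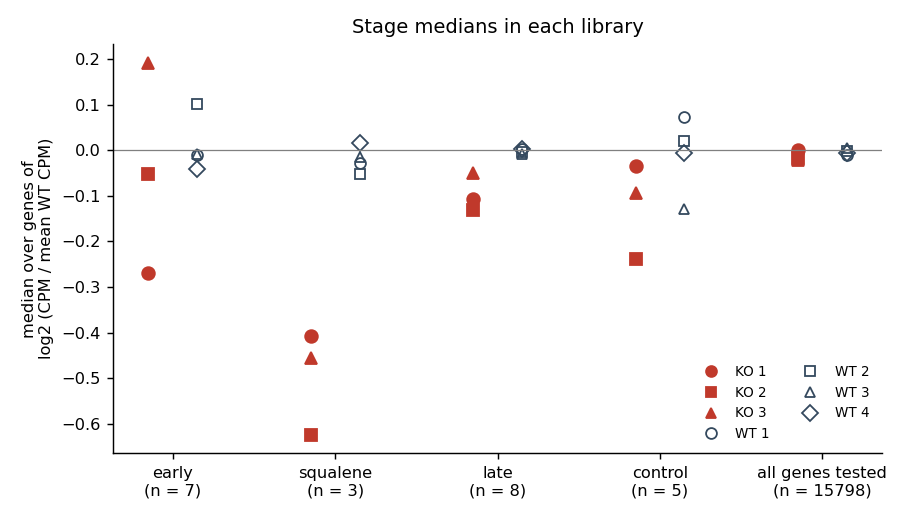
Median over the genes of each stage of log2 CPM over the mean WT CPM, 1 point per library, with all genes tested for scale; red filled points are Fhl2 KO libraries and dark open points WT libraries. The squalene stage holds the lowest Fhl2 KO points (-0.62 to -0.41), and the early stage the widest spread among them (-0.27 to 0.19). The squalene median is over 3 genes, of which Fdft1 lay above its mean WT level in each Fhl2 KO library.

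None of the 5 SREBP control genes was called, against 29.0% of all genes tested. Srebf2, the gene of SREBP-2, the main activator of sterol enzymes, had 119.6, 93.3 and 114 CPM in Fhl2 KO libraries 1 to 3, against 129, 129, 111 and 118 CPM in WT libraries 1 to 4. The groups overlapped, with Fhl2 KO library 2 lowest, and the log2 fold change was -0.16 (SE 0.0998, edgeR adjusted p = 0.248). Srebf1, the gene of SREBP-1, which acts more on fatty acid genes, stood at 33.97 ± 2.66 CPM in Fhl2 KO and 36.5 ± 2.74 CPM in WT (SD, n = 3 and 4) (-0.10, SE 0.0981, edgeR adjusted p = 0.460). Scap stood at 258 ± 25.2 CPM in Fhl2 KO and 239 ± 18.2 CPM in WT (SD, n = 3 and 4) (0.11, SE 0.0949, edgeR adjusted p = 0.411). Insig1, an endoplasmic reticulum anchor and itself a known SREBP target, had 59.95, 55.8 and 55.7 CPM in Fhl2 KO libraries 1 to 3, against 64.7, 67.7, 62.1 and 72.5 CPM in WT libraries 1 to 4. Each Fhl2 KO library was below each WT library, with a log2 fold change of -0.22 (SE 0.0898, edgeR adjusted p = 0.0689). It was called lower after the correction (-0.22, edgeR adjusted p = 0.0283) and without Fhl2 KO library 1, within a range of 0.0164 to 0.471. Insig2, the second anchor, had 18.8, 16.8 and 13.8 CPM in Fhl2 KO libraries 1 to 3, against 19.4, 17.5, 20.7 and 19.4 CPM in WT libraries 1 to 4 and a log2 fold change of -0.22 (SE 0.116, edgeR adjusted p = 0.155); it too was called without library 1. The median log2 fold change of the 5 genes was -0.16, and -0.05 after the correction. Without Fhl2 KO library 2 it was -0.05.

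Of the remaining members, Stard4 and Mylip were lower and Ggps1 was not called. Stard4, a cytosolic carrier that moves sterol between membranes, had 11.5, 9.07 and 11.1 CPM in Fhl2 KO libraries 1 to 3, against 14.2, 15.1, 14.2 and 13.6 CPM in WT libraries 1 to 4. There was no overlap. Stard4 was lower, with a log2 fold change of -0.43 (SE 0.117, edgeR adjusted p = 0.0123), but its corrected value was -0.19 (edgeR adjusted p = 0.213), and its call was also lost without Fhl2 KO library 2 and for library 1 alone (range 0.00352 to 0.277). Mylip, a ligase that marks lipoprotein receptors for degradation and is a known target of the oxysterol receptors, had 3.34, 3.60 and 2.17 CPM in Fhl2 KO libraries 1 to 3, against 6.53, 5.06, 5.17 and 3.82 CPM in WT libraries 1 to 4. The highest Fhl2 KO library was just under the lowest WT library. Mylip showed the largest fold change of the 26, -0.76 (SE 0.205, edgeR adjusted p = 0.0124), with 99 to 169 counts in Fhl2 KO libraries and 167 to 254 in WT libraries; its call was lost without Fhl2 KO library 3 and for library 1 alone (range 3.86e-04 to 0.194). Ggps1, which makes geranylgeranyl diphosphate on the branch to prenylated proteins, stood at 18.04 ± 1.83 CPM in Fhl2 KO and 18.5 ± 1.10 CPM in WT (SD, n = 3 and 4) (-0.04, SE 0.106, edgeR adjusted p = 0.8289).

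**Figure D3:**
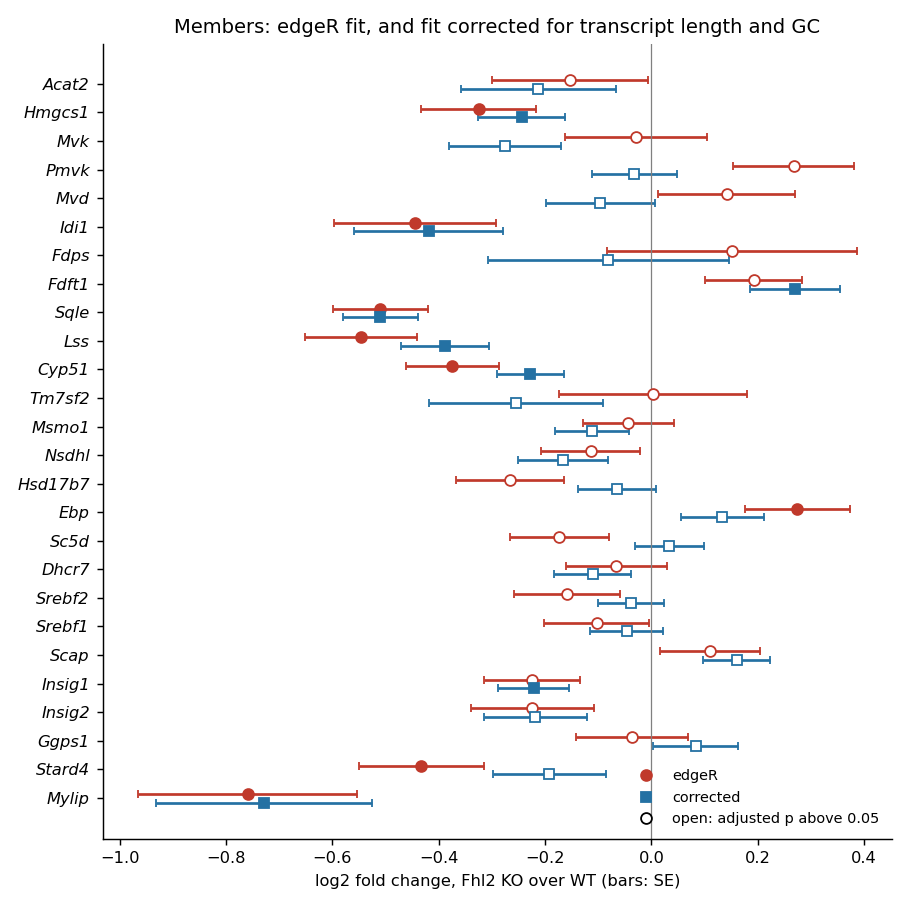
Log2 fold change, Fhl2 KO over WT, of the 26 genes with SE, from the edgeR fit (red circles) and with the length and GC trends taken out (blue squares); open symbols have an adjusted p above 0.05. Sqle, Lss, Cyp51, Hmgcs1, Idi1 and Mylip are filled and below 0 in both, whereas Ebp and Stard4 are filled in the first only and Insig1 and Fdft1 in the second only.

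Per kilobase of the longest coding transcript, levels of the members spanned from 0.991 (Mylip) to 61.1 (Scap) CPM per kb in Fhl2 KO and from 1.44 (Fdps) to 56.6 (Scap) in WT. The Fdps value rests on a count that is no measure of its transcript level, and Mylip was next in WT at 1.68. Scap stood clear of the rest, at 54.99 to 66.9 CPM per kb in the Fhl2 KO libraries and 51.1 to 60.4 in the WT libraries. In WT, Cyp51 (28.2 to 31.4), Hmgcs1 (25.5 to 31.5) and Msmo1 (27.8 to 30.2) came next with overlapping ranges, followed closely by Fdft1 (24.5 to 27.5), Insig1, Sqle (23.3 to 25.3), Srebf2 and Ebp (22.3 to 24.8). In the Fhl2 KO libraries Fdft1 (26.7 to 32.4), Ebp (24.4 to 30.7) and Msmo1 (28.2 to 28.5) lay above Cyp51 (21.4 to 24.6) and Sqle (15.7 to 17.6), though the lowest library of Ebp was within the range of Cyp51. Lss was the lowest of the squalene enzymes in both groups, at 4.31 to 5.14 in Fhl2 KO and 6.38 to 7.71 in WT. Per kilobase Srebf2 (18.4 to 23.6 in Fhl2 KO and 21.9 to 25.4 in WT) was higher than Srebf1 (7.19 to 8.29 and 7.68 to 9.24) in every library. There were 3.02 to 3.36 counts per Srebf1 count in Fhl2 KO and 3.24 to 3.49 in WT, not scaled for transcript length (5077 bases for Srebf2 and 4299 for Srebf1).

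**Figure D4:**
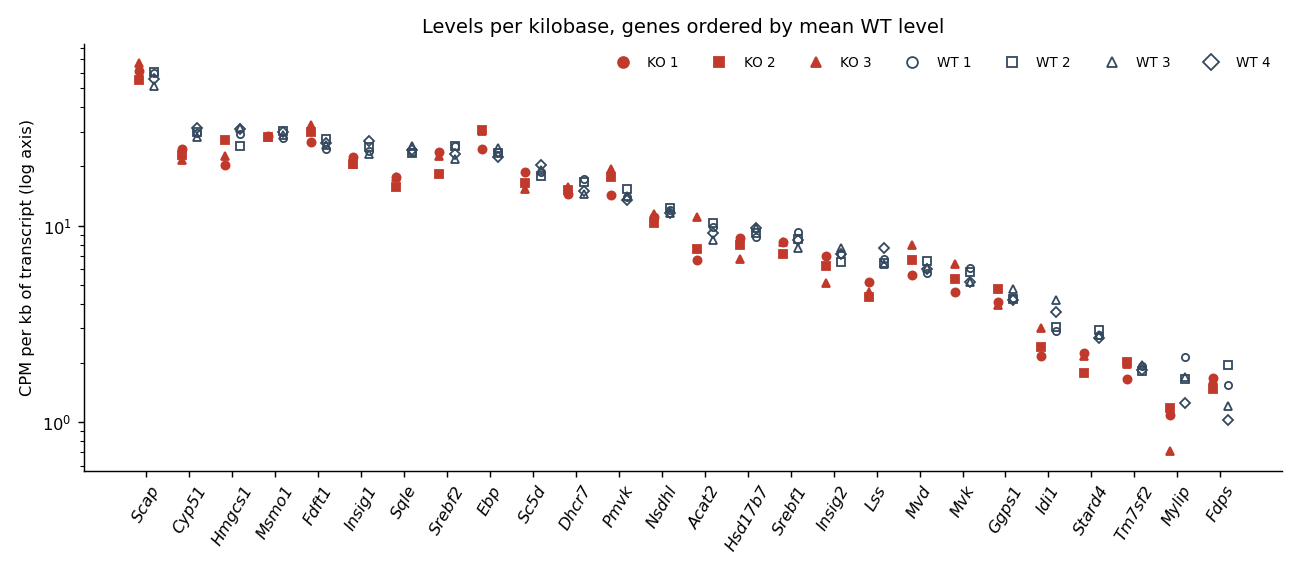
CPM per kilobase of the longest coding transcript for the 26 genes in each library, on a log axis, ordered by the mean WT level; red filled points are Fhl2 KO libraries and dark open points WT libraries. Scap is highest and Fdps lowest by mean WT level, though the Fdps count is no measure of its transcript level. Cyp51, Sqle, Lss, Stard4, Mylip, Insig1, Hsd17b7 and Nsdhl show Fhl2 KO points below the WT points.

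Genes around the route were read from 5 lists of 48 genes in all, of which 47 were tested and 17 called, 9 lower and 8 higher (19.1% and 17.02%, against 15.6% and 13.5% of all genes tested). For Fhl2 KO library 1 alone 2 were called, Scd2 and Me1. Leaving out Fhl2 KO library 3 left 7 called, with 10.2% of all genes called, and leaving out library 1 gave 28, with 41.6% of all genes called, so the count moved with that over all genes. Among 14 genes of fatty acid synthesis, known targets of SREBP-1, 6 were lower (42.9%), 2 were higher (14.3%) and 6 were not called. Their median log2 fold change was -0.27, and -0.14 after the correction. For Fhl2 KO library 1 alone against WT it was -0.10. Scd2, a desaturase that makes oleate, had 1354, 984 and 1099 CPM in Fhl2 KO libraries 1 to 3, against 2131, 2056, 1814 and 1951 CPM in WT libraries 1 to 4. The groups did not overlap. Scd2 was lower, with a log2 fold change of -0.79 (SE 0.109, edgeR adjusted p = 1.06e-04), corrected -0.54, and was called under all 20 alternatives. Fads2, the desaturase of polyunsaturated fatty acids, had 72.9, 56.04 and 69.1 CPM in Fhl2 KO libraries 1 to 3, against 95.7, 91.6, 76.7 and 91.9 CPM in WT libraries 1 to 4 and was lower, with a log2 fold change of -0.43 (SE 0.107, edgeR adjusted p = 0.00769), corrected -0.47. Fatty acid synthase, Fasn (-0.45, SE 0.136, edgeR adjusted p = 0.0258), ATP-citrate lyase, Acly (-0.28, SE 0.0903, edgeR adjusted p = 0.0291), the desaturase Scd1 (-0.40, SE 0.120, edgeR adjusted p = 0.0216) and the elongase Elovl6 (-0.49, SE 0.143, edgeR adjusted p = 0.0198) were lower too, but none of these 4 was called after the correction or for Fhl2 KO library 1 alone. Their calls were also lost without Fhl2 KO library 3, those of Fasn and Acly without library 2, those of Fasn, Acly and Scd1 without WT library 1, those of Fasn and Acly without WT library 2, those of Acly and Elovl6 without WT library 3 and that of Acly without WT library 4. The lower count of the list was 2 without Fhl2 KO library 3, 3 without WT library 1 and 2 after the correction. In these settings 6.14%, 11.3% and 11.2% of all genes tested were called lower, against 15.6% with all libraries and no correction. The count over all genes thus fell as well, but in each setting by a smaller share than that of the list. The cause was not tested.

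The gene of the list that rose most was Me1, the malic enzyme that supplies NADPH for lipid synthesis. Me1 had 788, 801 and 689 CPM in Fhl2 KO libraries 1 to 3, against 385, 388, 437 and 436 CPM in WT libraries 1 to 4. Every Fhl2 KO library was far above every WT library. The log2 fold change of Me1 was 0.88 (SE 0.0922, edgeR adjusted p = 6.21e-06), corrected 0.96, and it was called under all 20 alternatives. Mid1ip1, which helps acetyl-CoA carboxylase assemble, was higher, at a log2 fold change of 0.24 (SE 0.0865, edgeR adjusted p = 0.0486; corrected 0.05), a call lost in 14 of 20 alternatives, each left-out library except Fhl2 KO library 1 among them.

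**Figure D5:**
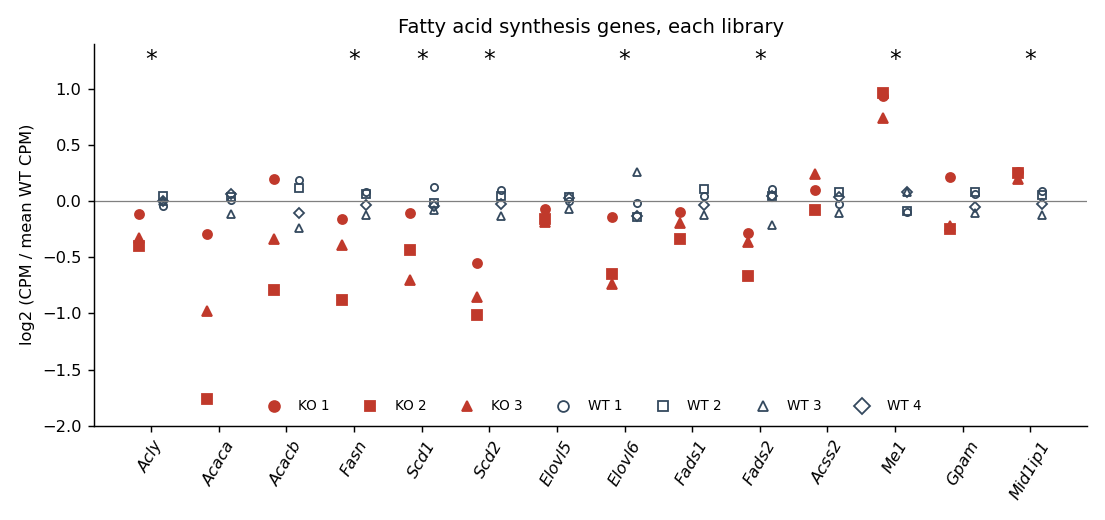
Level of each of 14 fatty acid synthesis genes in each library, as log2 of CPM over the mean WT CPM; red filled points are Fhl2 KO libraries, dark open points WT libraries, and asterisks mark genes at an edgeR adjusted p of at most 0.05. All 3 Fhl2 KO libraries lie below the WT points for Scd2, Fads2, Acly, Acaca and Fasn and, narrowly, for Scd1 and Elovl6. They lie above the WT points for Me1 and Mid1ip1. For Scd2, Fads2, Acly, Acaca, Fasn, Scd1 and Elovl6 alike, Fhl2 KO library 1 lies nearest to WT.

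Among 11 genes that use isoprenoids, 3 were higher (27.3%, against 13.5% of all genes tested) and 8 were not called (median 0.20, corrected 0.09). Rabggta and Rabggtb, the subunits of the enzyme that attaches geranylgeranyl to RAB proteins, were higher, at a log2 fold change of 0.46 (SE 0.0982, edgeR adjusted p = 0.00320) and 0.39 (SE 0.0908, edgeR adjusted p = 0.00579). Fnta, the subunit shared by the farnesyl and the other geranylgeranyl transferase, was higher, at a log2 fold change of 0.31 (SE 0.0884, edgeR adjusted p = 0.0168). All Fhl2 KO libraries were above all WT libraries for these 3 genes, as for 16.4% of all genes tested. The Fnta call was lost without Fhl2 KO library 3. Without library 1, 5 genes of the list were higher, where 20.6% of all genes were called higher. Of 9 genes of SREBP cleavage and degradation, Rnf139, a ubiquitin ligase of the endoplasmic reticulum, was higher, at a log2 fold change of 0.32 (SE 0.0978, edgeR adjusted p = 0.0231), and Erlin1, a scaffold in that membrane, was lower, at -0.39 (SE 0.110, edgeR adjusted p = 0.0144). Rnf145, another such ligase, was at -0.15 (SE 0.0871, edgeR adjusted p = 0.203), and it and the remaining 6 genes of the list were not called. The Rnf139 call was lost without Fhl2 KO library 2 or 3 or WT library 1 or 4, and that of Erlin1 without Fhl2 KO library 2 or 3 or WT library 3.

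Of 8 other sterol genes, 7 were tested. Lbr, a nuclear envelope protein that also carries a sterol reductase, had 23.98, 18.1 and 17.01 CPM in Fhl2 KO libraries 1 to 3, against 27.6, 27.5, 29.2 and 31.7 CPM in WT libraries 1 to 4. The groups did not overlap. Lbr was lower, with a log2 fold change of -0.56 (SE 0.118, edgeR adjusted p = 0.00318), corrected -0.47. Npc2, which hands cholesterol out of lysosomes, was higher, at a log2 fold change of 0.41 (SE 0.1001, edgeR adjusted p = 0.00716), a call lost without Fhl2 KO library 3, and Erg28 was at 0.25 (SE 0.0968, edgeR adjusted p = 0.0568). Of 6 oxysterol receptor and target genes, Arl4c was lower, at a log2 fold change of -0.53 (SE 0.101, edgeR adjusted p = 0.00158), and Smpdl3a higher, at 0.36 (SE 0.107, edgeR adjusted p = 0.0196), a call lost without Fhl2 KO library 3 or WT library 4. Nr1h3, the gene of the oxysterol receptor LXR alpha, was at 1.36 to 1.76 CPM in Fhl2 KO and 0.801 to 1.14 CPM in WT, with a log2 fold change of 0.71 (SE 0.266, edgeR adjusted p = 0.0543).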

How the data were processed

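Gene expression was measured by RNA-seq. RNA came from TRIzol extraction and went into stranded mRNA libraries, per the labels' protocols. The submitters' processing notes name mm10 and list, without roles, DESeq2 1.28.1, Cufflinks 2.2.1, featureCounts 1.6.4, HISAT2 2.2.1, SAMtools and fastp. Neither the strand setting nor the annotation release is known from these sources. The deposited values were counts, whole reads per gene symbol that the authors had not normalized. With totals of 38855596 to 50514556 per library, 3 counts correspond to 0.0594 to 0.0772 CPM.

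The test was edgeR 4.0.16 in R 4.3.3 with genotype as the only term (TMM, robust glmQLFit, glmQLFTest) on genes kept by filterByExpr at a minimum count of 10. The SE was derived from the F statistic. Transcript lengths, GC content and coordinates came from the longest coding transcript of GENCODE M21 on the same build, matched for 98.5% of tested genes. For the correction, splines (4 degrees of freedom each, genes above 1 CPM) described each library's log2 CPM by length and by GC, and their fit entered edgeR as an offset. Log2 ratios to WT used a pseudocount of 0.1 CPM. Copies were counted as shared words of 31 bases over the GENCODE transcripts. No libraries were duplicates (chi-square per degree of freedom at least 10.4 within groups). Alternatives were DESeq2 1.42.0, limma 3.58.1 voom with quality weights, other scalings and filters, the replicate number as a block, left-out libraries and Fhl2 KO library 1 alone. Scripts were tested on simulated data. All members are named, and from each other list the 3 genes with the smallest p and any gene called; neighbours and copies of members were named for their overlap. Members, lists and the correction were chosen with earlier results of these data known. Some genes of the route are not reported here.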

Additional observations from a re-analysis of the deposited data

Results flagged for a closer look

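In Ggps1, WT library 3 stood apart at 20.2 CPM, against 17.8 to 18.1 CPM in the other WT libraries, a gap of 0.880 of the WT range. Of the 26 genes tested in this way in the 4 WT libraries, this was the only one, and chance alone gives about 1 in 20.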

How the results depend on the processing

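Over 20 alternatives, Sqle kept its direction and its call. Leaving out 1 library gave 1657 (without Fhl2 KO library 3) to 6740 (without Fhl2 KO library 1) genes called over all genes, 5 to 9 lower and 0 to 3 higher members, 7 to 28 called genes of the surrounding lists, and a median of -0.21 to -0.0490 for the SREBP control genes. The higher members numbered 3 with voom (19.9% of all genes called higher) and 2 with library totals alone (16.6%). They numbered 0 with no low-count filter (6.86%) and 0 with the longest transcript of any type (11.1%). Voom called 26 genes of the surrounding lists, where 41.7% of all genes were called. Fhl2 KO library 1 alone gave 781 genes over all, 3 lower and 0 higher members, 2 genes of the surrounding lists, and medians of -0.27 (early) and -0.0353 (control). The correction gave medians of -0.39 (squalene) and -0.0462 (control). With the longest transcript of any type, an alternative chosen after seeing the data like that without members sharing 31-base words, the squalene median was -0.21. The cause of these shifts was not tested.

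Deviations of same-numbered libraries from their group means correlated at 0.0449, 0.00191 and -0.0496, and those of differently numbered ones at -0.0795 to 0.0896. With so few libraries, these values cannot settle whether the replicate numbers pair the samples. With the replicate number as a block over 6 libraries, 3301 genes were called, with 5 lower and 0 higher members, and without the block the same libraries gave 2960, 5 and 0. The correction with the block gave 2248 genes, 4 lower and 1 higher members, 11 genes of the surrounding lists, and medians of -0.32 (squalene) and -0.0375 (control). The edgeR adjusted p with the block was 0.0919 for Hmgcs1, 0.0689 for Idi1 and 0.196 for Ebp, and for the same libraries without it 0.0970, 0.0898 and 0.131. With the correction and the block it was 0.0984 for Cyp51, 0.134 for Hmgcs1, 0.277 for Stard4 and 0.4997 for Ebp, so these members were not called there.

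Single genes changed sign only where they were not called. With the correction, the correction with the block and the longest transcript of any type, the log2 fold changes were -0.0319, -0.0452 and -0.0257 for Pmvk, -0.0964, -0.0978 and -0.0875 for Mvd, -0.26, -0.25 and -0.0111 for Tm7sf2, 0.0335, 0.0589 and 0.00304 for Sc5d and 0.0829, 0.0572 and 0.0561 for Ggps1. With the correction and with the block added to it they were -0.0811 and -0.19 for Fdps and 0.0197 and 0.0364 for Rnf145. With Fhl2 KO library 1 alone, Pmvk was at -5.00e-04, Mvd at -0.13 and Tm7sf2 at -0.19. Mvk was at 0.0737 with voom and 0.0103 with library totals alone, Ggps1 at 0.00546 with library totals alone, and Tm7sf2 at -0.0116 with the block and -0.00816 without it. With 1 library left out, values ran over -0.40 to 0.00716 for Acat2, -0.16 to 0.0964 for Mvk, -0.0397 to 0.11 for Tm7sf2 and -0.11 to 0.0158 for Ggps1. Fdps, Tm7sf2 and Mylip had the fewest counts of the 26 members, at 62 to 254 per library.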
